A study of Mus musculus with 4 samples.

Results

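The Ikaros family comprises 5 genes in the mouse, Ikzf1 (Ikaros), Ikzf2 (Helios), Ikzf3 (Aiolos), Ikzf4 (Eos) and Ikzf5 (Pegasus), and their transcripts were followed here in single bone marrow progenitors of innate lymphoid cells (ILCs). All 5 members were taken by symbol and had a row in both count tables, which together listed 26421 genes. The members encode C2H2 zinc finger proteins that bind DNA through a group of fingers near the N terminus and pair with each other through a group of fingers at the C terminus. They act mostly with chromatin complexes such as NuRD, Sin3 and CtBP, and they steer lymphocyte development from the earliest progenitors onward. Ikaros and Aiolos are also the proteins that the cereblon ligase degrades when it is bound by thalidomide-like drugs, and Helios is best known from regulatory T cells.

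The study sorted α-lymphoid progenitors (αLPs) of the bone marrow, which lack lineage markers and FLT3 and carry CD127 and LPAM-1, from C57BL/6 wild-type (WT) mice and from G3SEKO mice, which lack the distal tandem super-enhancers of Gata3. Cells of both genotypes were labelled with hashtag antibodies, captured together on BD Rhapsody and sequenced by TAS-Seq in 2 separate experiments, each giving an mRNA and a hashtag library. G3SEKO is a germline deletion made by Cas9 in zygotes, so every cell of these adult mice carries it, and cells of several mice were pooled for each genotype. Genotype was read from the hashtag prefix of each cell, A0307 to A0309 for WT and A0310 to A0312 for G3SEKO in experiment 1, and A0302 for WT and A0303 for G3SEKO in experiment 2. The label of experiment 2 names WT alone beside both of its tags, so the assignment of A0303 to G3SEKO came from the selection rule and was not given by that label. Cells of 1 experiment and 1 genotype were treated as 1 sample, because cells of a pooled capture are not replicates.

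The tables held 8663 cells, of which 7013 passed the limits on reads, mitochondrial reads and Id2, a transcript that marks the ILC lineage. Of these, 5903 fell into 5 gates set on a single transcript at ln(1 + reads per 10000) of at least 1. Zbtb16+ cells, named for the factor PLZF of ILC precursors, numbered 88 WT and 17 G3SEKO in experiment 1 and 216 WT and 355 G3SEKO in experiment 2. Icos+ cells, which had the costimulatory receptor Icos without Zbtb16, numbered 80 WT and 6 G3SEKO in experiment 1 and 564 WT in experiment 2, where G3SEKO had 265 with and 47 without the receptor transcript Il18r1. Il1rl1+ cells, which had the IL-33 receptor ST2 of ILC2s, numbered 424 and 1 in experiment 1 and 3546 and 49 in experiment 2. Ccr6+ cells, with a chemokine receptor of lymphoid tissue inducer cells, numbered 2 and 2 and then 38 and 107, and Eomes+ cells, with a factor of NK cells, numbered 25 and 4 and then 25 and 42. Il1rl1, Ccr6 and Eomes excluded each other and took precedence over Zbtb16, which took precedence over Icos. Sums of fewer than 5 cells were left out, so G3SEKO Il1rl1+ and Eomes+ cells and all Ccr6+ cells were represented by experiment 2 alone.

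The 5 genes lie on 4 chromosomes (GRCm38). Ikzf1 spans chr11:11685003-11772926 (+) and Ikzf3 lies on the same chromosome at chr11:98464902-98546031 (−). Ikzf2 spans chr1:69531214-69687245 (−), Ikzf4 spans chr10:128630843-128645991 (−) and Ikzf5 spans chr7:131388652-131410521 (−). Because the members are paralogs, the longest runs of coding sequence that any pair had in common were searched, to show stretches where a short read could match more than 1 of them. Over whole transcripts the longest run in common was 32 bases, for Ikzf2 and Ikzf4, outside the coding sequence of at least 1 of them, and it is not shown. The runs of Ikzf3 with Ikzf1, Ikzf2 and Ikzf5, and that of Ikzf1 with Ikzf4, are given 5′ to 3′ on the sense strand, in lower case with no letters singled out.
Ikzf1 and Ikzf3, 26 bases: gatccctttgagtgtaacatgtgtgg
Ikzf1 and Ikzf4, 24 bases: gactccacagatacagagagcaac
Ikzf2 and Ikzf3, 20 bases: atgatggaccaagccatcaa
Ikzf3 and Ikzf5, 19 bases: tccacatggggtgccatgg

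The run common to Ikzf1 and Ikzf3 lies in the last coding exon of both, exon 9 of 9 at chr11:11769483-11769508 and exon 8 of 8 at chr11:98467059-98467084, where the C-terminal dimerization fingers are encoded. The run common to Ikzf2 and Ikzf3 also lies in the last exon of both, at chr1:69539384-69539403 and chr11:98467587-98467606. The run of Ikzf3 and Ikzf5 lies at chr11:98467092-98467110 and chr7:131391737-131391755. The run of Ikzf1 and Ikzf4 lies at chr11:11769207-11769230 and chr10:128634420-128634443. The read length was not given in the sources used here, so the share of reads that could fall within such a run is unknown. Of the genes that overlap a member, Pstk on the opposite strand of Ikzf5 had 34873 reads against 33747 for Ikzf5 in the kept cells, and whether the counting used strand was not stated, so values of Ikzf5 are uncertain. The other overlapping transcripts found in the tables had 63 to 627 reads, against 7659 for Ikzf4, 166666 for Ikzf3, 204412 for Ikzf1 and 252018 for Ikzf2.

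The gates were compared with markers of each stage in WT cells of experiment 2. Of 5 precursor markers 4 (Pdcd1, Tox, Tox2, Il18r1) were highest in Zbtb16+ cells, Il18r1 only barely, at 586 CPM against 585 CPM in Eomes+ cells. Of 6 NK and ILC1 markers 4 were highest in Eomes+ cells, whereas only Il2ra and Gata3 of 5 ILC2 markers peaked in Il1rl1+ cells and only Bcl11b and Il17rb of 4 in Icos+ cells. The Icos+ and Il1rl1+ gates are therefore called by their transcript. The 16 sums used held between 1614581 and 190982682 reads, and the median reads per cell were 370422.5 to 645160 in experiment 1 and 29517 to 59450.5 in experiment 2. The sort removed B, T, NK and myeloid cells by surface markers, and the summed CPM (reads scaled to a sum of 1000000) of 6 B lineage transcripts was 36.1 to 63.1 in WT and 0.778 to 106 in G3SEKO sums, led by Cd79b. The summed CPM of 6 T lineage transcripts was 6.74 to 508 in WT sums, highest in Eomes+ cells of experiment 1, and 14.6 to 139 in G3SEKO sums. Mast cell and basophil transcripts, nearly all of them Cpa3, ranged from 0.176 to 212, and the part of any of these in the results below was not tested apart from the values given there.

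Helios was higher in Zbtb16+ than in Icos+ and Il1rl1+ WT cells in both experiments. Ikzf2 was 694 and 685 CPM in Zbtb16+ cells of experiments 1 and 2, 372 and 290.1 CPM in Icos+ cells and 289 and 295 CPM in Il1rl1+ cells. Both Zbtb16+ values lay above all values of the other 2 gates, whereas Icos+ and Il1rl1+ cells overlapped. Eomes+ cells stood between, at 585 and 558 CPM, and Ccr6+ cells of experiment 2 were lowest at 112 CPM. The means were 690 ± 6.27 CPM in Zbtb16+, 331 ± 58.2 in Icos+, 292 ± 4.81 in Il1rl1+ and 572 ± 19.1 in Eomes+ cells (SD, n = 2 experiments). Ikzf2 was 2.36-fold lower in Il1rl1+ than in Zbtb16+ cells on average, and the edgeR quasi-likelihood fit gave a log2 change of −1.17 ± 0.20 (SE) with a Benjamini-Hochberg adjusted p of 0.14 over 20544 genes, so the test was not passed. DESeq2 on the same sums called it (adjusted p = 0.0014), and so did 3 of the other edgeR settings. In the reported fit edgeR called 14 genes, 0.0681% of those tested, and DESeq2 called 496 of 15366, 3.23%. The 3 other edgeR settings that called Ikzf2 also called many more genes than the reported fit, with counts under the closing observations. Their calls of Ikzf2 are thus not separate support.

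**Figure D1:**
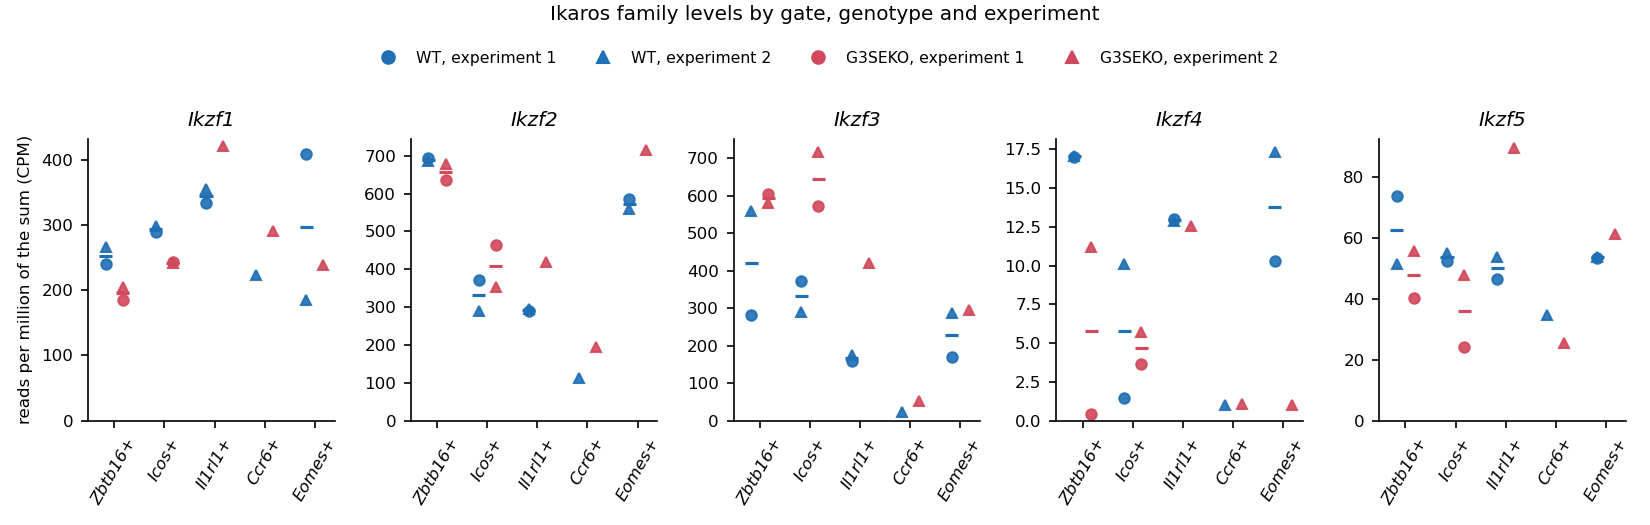
CPM (vertical axis) of the 5 members in each gate. Each point is 1 sum of cells, blue for WT and red for G3SEKO, circles for experiment 1 and triangles for experiment 2, and short lines mark the mean of 2 experiments. Among WT points, Ikzf2 is highest in Zbtb16+ cells, and the G3SEKO points of Ikzf3 lie above the WT points in Icos+ and Il1rl1+ cells.

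Between Icos+ and Zbtb16+ cells, Ikzf2 differed by −1.01 ± 0.20 (log2, SE), which edgeR did not call (adjusted p = 0.86, 1 gene or 0.00487% called) and DESeq2 did (adjusted p = 0.027, 142 genes or 0.901%). Between Il1rl1+ and Icos+ cells the fitted difference was −0.17 ± 0.20 (edgeR adjusted p = 1), so the 2 gates were not told apart. In that comparison edgeR called no gene, 0%, with 521 genes at an unadjusted p under 0.05, and DESeq2 called 60. Eomes+ cells were near the level of Zbtb16+ cells, with a difference from Zbtb16+ cells of −0.23 ± 0.20 (edgeR adjusted p = 0.84), where edgeR called 1 gene, 0.00487%. The Eomes+ gate did not exclude Zbtb16, which was 293 and 410 CPM in its WT sums, against 991 and 1029 CPM in Zbtb16+ cells. Tcf7 was 944 and 1809 CPM in these Eomes+ sums. The part of such cells in the likeness was not tested.

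Aiolos had its lowest WT levels, Ccr6+ cells aside, in Il1rl1+ cells, but its level in Zbtb16+ cells varied between experiments. Ikzf3 was 282 and 561 CPM in Zbtb16+ cells, 373 and 291 CPM in Icos+ cells, 160.3 and 176 CPM in Il1rl1+ cells and 171 and 287 CPM in Eomes+ cells. The 2 Il1rl1+ values lay below all values of Zbtb16+ and Icos+ cells and overlapped those of Eomes+ cells. Zbtb16+ and Icos+ cells overlapped with each other, and their order was opposite in the 2 experiments. The means were 421 ± 197, 332 ± 57.9, 168 ± 10.8 and 229 ± 82.1 CPM (SD, n = 2). Within experiment 1 the 3 WT hashtags gave 244 to 343 CPM in Zbtb16+ and 145 to 182 CPM in Il1rl1+ cells, which did not overlap.

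From Zbtb16+ to Il1rl1+ cells Ikzf3 changed by −1.22 ± 0.31 (log2, SE), with an edgeR adjusted p of 0.40, and no alternative tested called it (adjusted p 0.069 to 0.51). The change was −0.80 in experiment 1 and −1.57 in experiment 2. From Icos+ to Il1rl1+ cells it was −1.0 ± 0.31 (edgeR adjusted p = 1), from Zbtb16+ to Icos+ cells −0.22 ± 0.31 (adjusted p = 1) and from Zbtb16+ to Eomes+ cells −0.85 ± 0.31 (adjusted p = 0.59). The last ran from −1.13 to −0.34 over the alternatives that kept both experiments. Ccr6+ cells of experiment 2 held 22.3 CPM, from 43 reads of which 60.5% came from 1 cell, against 561 CPM in Zbtb16+ cells. This is a 24.8-fold difference with no replicate, larger than the 6.1-fold difference of Ikzf2 and the 1.19-fold difference of Ikzf1 between the same sums. In that pair of sums 32.4% of all genes tested were over 2-fold higher in Zbtb16+ cells.

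Ikaros moved the other way among WT gates, by less. Ikzf1 was 239.8 and 266 CPM in Zbtb16+, 289 and 298 CPM in Icos+ and 334 and 356 CPM in Il1rl1+ cells. The values of the 3 gates did not overlap, and the order was the same in both experiments. Within experiment 1 the 3 WT hashtags did overlap, at 185 to 288 CPM in Zbtb16+, 236 to 347 CPM in Icos+ and 281 to 388 CPM in Il1rl1+ cells. The fitted change from Zbtb16+ to Il1rl1+ cells was 0.51 ± 0.37 (log2, SE; edgeR adjusted p = 1), which did not pass the test. In Eomes+ cells Ikzf1 was 408 CPM in experiment 1 and 185 CPM in experiment 2, a spread wider than any difference between gates.

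Pegasus and Eos were lower in reads, and Pegasus gave no ordered pattern. Ikzf5 was between 46.4 and 74.0 CPM in all 8 WT sums of the Zbtb16+, Icos+, Il1rl1+ and Eomes+ gates, and 34.8 CPM in Ccr6+ cells. Ikzf4 lay between 1.5 and 17.3 CPM in those 8 sums, and a single cell gave up to 92.9% of its reads in a sum. The SE of its fitted differences was 1.21 to 1.89 on the log2 scale over 7 contrasts, so changes of several-fold were not detectable. For Ikzf5 the SE was 0.51 to 0.72, and no contrast of either gene was called by edgeR.

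Aiolos was compared with its paralogs by the log2 ratio within each sum, which cancels the total of the sum. In WT cells the ratio of Ikzf3 to Ikzf1 was 0.23 and 1.07 in Zbtb16+ cells, 0.37 and −0.03 in Icos+ cells, −1.06 and −1.02 in Il1rl1+ cells, and −3.31 in Ccr6+ cells of experiment 2. This ratio was thus lower in Il1rl1+ than in Zbtb16+ cells of both experiments. The ratio of Ikzf3 to Ikzf2 was −1.30 and −0.29 in Zbtb16+ cells, 0.00306 and 0.0060 in Icos+ cells, and −0.85 and −0.75 in Il1rl1+ cells. The order of Zbtb16+ and Il1rl1+ cells in this ratio was opposite in the 2 experiments. These ratios of reads are not corrected for transcript length, so their sign does not rank the genes.

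The comparison of G3SEKO with WT addressed whether the loss of the Gata3 super-enhancers changed the family within a given gate. Gata3 itself was 862 and 782 CPM in WT against 937 and 498 CPM in G3SEKO Zbtb16+ cells, 1209 and 1004 against 763 and 461 CPM in Icos+ cells, and 1387 and 1039 in WT against 296 CPM in G3SEKO Il1rl1+ cells. Its genotypes overlapped in Zbtb16+ cells and did not in Icos+ cells. Transcripts of the deleted region were not analysed here. Ikzf3 was chosen for comparison with its higher level in G3SEKO cells already known, so its direction here is not independent evidence.

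Aiolos was higher in G3SEKO than in WT Icos+ cells of both experiments, but the difference did not pass the test across all genes. In Icos+ cells Ikzf3 was 373 and 291 CPM in WT and 572 and 718 CPM in G3SEKO sums, and the genotypes did not overlap. The ratios were 1.53-fold and 2.47-fold, the mean log2 ratio was 0.96 ± 0.49 (SD, n = 2), and the fit gave 0.89 ± 0.31 (SE) with an edgeR adjusted p of 0.87. edgeR called 0 genes in this comparison, 0%, with 888 genes at an unadjusted p under 0.05, and DESeq2 called 130 genes of 14968, 0.869%, without Ikzf3 (adjusted p = 0.27). The median of all genes in this fit was −0.31 (log2), and −0.11 with the size factors of DESeq2, with which Ikzf3 changed by 1.06. The G3SEKO sum of experiment 1 held 6 cells, 1 of which gave 46.3% of the Ikzf3 reads. In Icos+ cells T lineage transcripts summed to 16.4 and 23.6 CPM in WT and 139 and 62.8 CPM in G3SEKO, and mast cell and basophil transcripts, nearly all Cpa3, to 137 and 66.8 CPM in WT and 212 and 177 CPM in G3SEKO. Plasmacytoid dendritic cell transcripts summed to 18.9 and 5.22 CPM in WT and 1.30 and 39.8 CPM in G3SEKO. The T lineage and Cpa3 values were higher in G3SEKO of both experiments, and the Ikzf3 difference was 1.03 (log2, no test) with cells that had markers of other lineages left out.

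In Il1rl1+ cells Ikzf3 was 160.3 and 176 CPM in WT and 422 CPM in the only G3SEKO sum, of 49 cells. The ratio within experiment 2 was 2.4-fold, or 1.26 on the log2 scale, with no replicate and no test, and 15% of all genes tested were over 2-fold higher between the same sums. The same sum held 124 CPM of T lineage transcripts, mostly Trac, against 6.74 CPM in WT, and 106 CPM of B lineage transcripts against 38.4 CPM. Cpa3 was 191 CPM against 59.4 CPM, and plasmacytoid dendritic cell transcripts summed to 36.9 CPM against 4.50 CPM. Precursor transcripts also stood higher in this sum than in WT Il1rl1+ cells of experiment 2, with Zbtb16 at 305 against 30.6 CPM, Tcf7 at 795 against 42.7 CPM, Pdcd1 at 167 against 10.2 CPM and Tox2 at 206 against 4.46 CPM. Il1rl1+ cells of the 2 genotypes were thus not matched in these markers, and their part in the Ikzf3 ratio was not tested. With cells that had markers of other lineages left out, the log2 ratio was 1.32. With a gate limit of 2 in place of 1 it was 0.76.

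In Zbtb16+ cells, in contrast, the G3SEKO values of Ikzf3, 606 and 581 CPM, lay above both WT values, 282 and 561 CPM, but by only 1.04-fold within experiment 2 against 2.15-fold within experiment 1. The fitted difference was 0.54 ± 0.30 (SE; edgeR adjusted p = 1), with 0 genes called, 0%, 462 genes at an unadjusted p under 0.05 and 7 genes called by DESeq2. Over the alternatives that kept both experiments the Ikzf3 difference ran from 0.45 to 0.96, highest with sums per hashtag. The log2 ratios of the single experiments, 1.10 and 0.05, lay outside this range. The genotype difference of Icos+ cells exceeded that of Zbtb16+ cells by 0.35 ± 0.43 (log2, SE), which edgeR did not call (adjusted p = 1; 0 genes or 0% called, 594 at an unadjusted p under 0.05, 2 by DESeq2). A larger effect in Icos+ than in Zbtb16+ cells was thus not shown, and its sign was opposite in the 2 experiments. Within experiment 2, the log2 ratio of Il1rl1+ cells exceeded that of Zbtb16+ cells by 1.21, with no replicate. In Ccr6+ cells Ikzf3 was 22.3 CPM in WT and 51.5 CPM in G3SEKO, a log2 ratio of 1.19 in which 1 cell gave 60.5% and 40.3% of the reads, and in Eomes+ cells 287 and 296 CPM, a log2 ratio of 0.05.

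**Figure D2:**
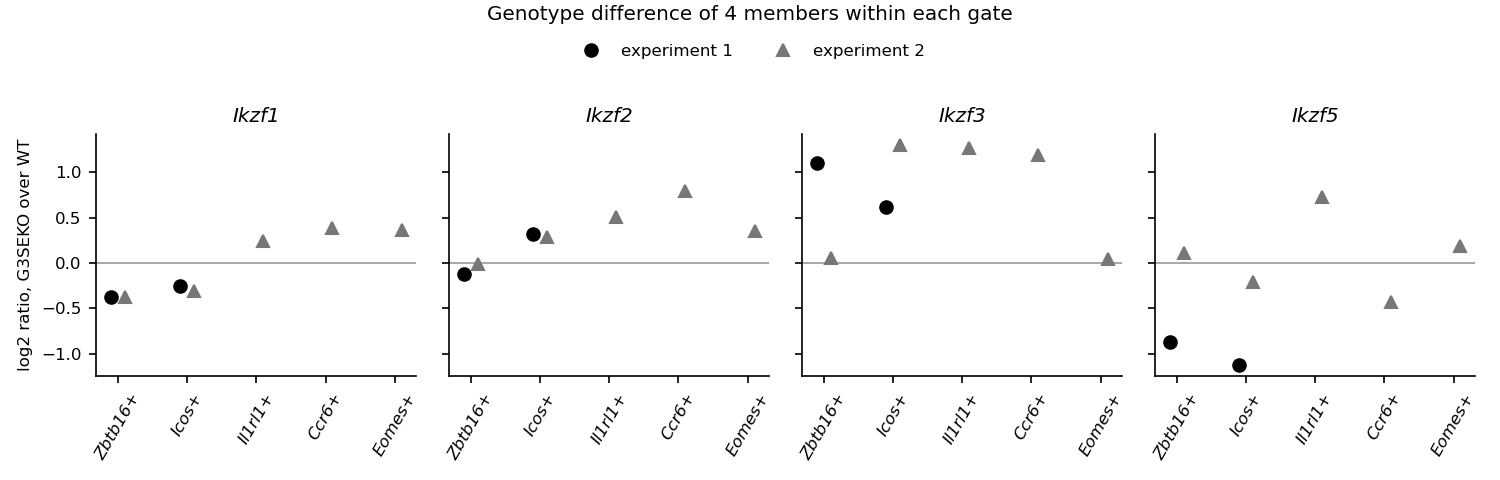
Log2 ratio of G3SEKO over WT CPM (vertical axis) of 4 members in each gate, black circles for experiment 1 and grey triangles for experiment 2. Points of Ikzf3 lie above 0 in every gate, at 0.05 in Zbtb16+ and Eomes+ cells of experiment 2, while those of Ikzf1 lie below 0 in Zbtb16+ and Icos+ cells and above 0 in the other gates.

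The genotype differences of Helios were smaller in these fits, and whether they differ from those of Aiolos was not tested. Ikzf2 was 694 and 685 CPM in WT and 636 and 678 CPM in G3SEKO Zbtb16+ cells, and 372 and 290.1 CPM against 465 and 353 CPM in Icos+ cells. Its fitted difference was −0.07 ± 0.20 in Zbtb16+ and 0.27 ± 0.20 in Icos+ cells (log2, SE; edgeR adjusted p = 1 and 0.87). In Icos+ cells the genotypes overlapped across experiments, while within each experiment Ikzf2 was higher in G3SEKO, by 0.32 and 0.28. With sums per hashtag both fitted differences changed sign, to 0.020 and −0.021. Ikzf2 was 295 CPM in WT and 420.1 CPM in G3SEKO Il1rl1+ cells of experiment 2. Thus Helios remained higher in Zbtb16+ than in Icos+ cells in both experiments of G3SEKO cells, as in WT.

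Ikaros was slightly lower in G3SEKO Zbtb16+ and Icos+ cells. Ikzf1 was 239.8 and 266 CPM in WT and 185 and 205 CPM in G3SEKO Zbtb16+ cells, and 289 and 298 CPM against 243 and 241 CPM in Icos+ cells. The genotypes did not overlap in either gate, yet the fitted differences of −0.38 ± 0.37 and −0.32 ± 0.37 (log2, SE) did not pass the test (edgeR adjusted p = 1 and 0.87). Over the alternatives that kept both experiments they ran from −0.65 to −0.044 in Zbtb16+ and from −0.59 to −0.15 in Icos+ cells. The value in Icos+ cells is close to the median shift of all genes there, −0.31. In Il1rl1+ cells of experiment 2 Ikzf1 was 356 CPM in WT and 421 CPM in G3SEKO.

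Ikzf5 was 52.6 and 55.2 CPM in WT and 24.1 and 47.8 CPM in G3SEKO Icos+ cells, and its log2 ratio was −0.67 ± 0.65 (SD, n = 2). Ikzf4 was at 5 reads, 0.4 CPM, in G3SEKO Zbtb16+ cells of experiment 1 and at 11.2 CPM in experiment 2, against 17 and 17.1 CPM in WT. The WT and G3SEKO values of Ikzf4 did not overlap in this gate, but the lowest rests on 5 reads from 17 cells.

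Aiolos was then set against its paralogs between genotypes. The log2 ratio of Ikzf3 to Ikzf1 was higher in G3SEKO than in WT by 1.47 and 0.43 in Zbtb16+ cells, by 0.87 and 1.61 in Icos+ cells, and in experiment 2 by 1.02 in Il1rl1+ and 0.81 in Ccr6+ cells. Relative to Ikzf2 the increases were 1.23 and 0.07 in Zbtb16+, 0.30 and 1.02 in Icos+, 0.76 in Il1rl1+ and 0.40 in Ccr6+ cells. In Eomes+ cells both ratios were lower in G3SEKO, with differences of −0.32 and −0.31. Relative to Ikzf5 the differences were 1.98 and −0.061 in Zbtb16+ cells and 1.73 and 1.51 in Icos+ cells, so the sign in Zbtb16+ cells depended on the experiment. Ratios to Ikzf1 and Ikzf2 share their Ikzf3 value and are not separate evidence.

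Cells with Il18r1, the IL-18 receptor chain that ILC precursors carry, were set apart within each gate, a split added after the data were seen. The paper reports prolonged expression of both Il18r1 and Ikzf3 in some clusters of G3SEKO cells. The split thus selects on a transcript that itself differs between genotypes, and it does not match WT and G3SEKO cells in stage. Il18r1 at the gate limit marked 55.0% and 20.9% of WT Icos+ cells in experiments 1 and 2, and 84.9% of G3SEKO Icos+ cells in experiment 2. Among Il1rl1+ cells it marked 13.7% and 5.36% in WT and 73.5% in G3SEKO of experiment 2. In Zbtb16+ cells of experiment 2 the shares were 64.8% in WT and 75.5% in G3SEKO. G3SEKO Icos+ and Il1rl1+ cells thus held larger shares of Il18r1+ cells than WT. The part of this in the levels of whole gates was not tested. The split cannot test it, because the share of Il18r1+ cells itself differed between genotypes.

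Within WT Icos+ cells, Ikzf3 was 480.1 and 562 CPM in Il18r1+ and 139.9 and 152 CPM in Il18r1− cells, with no overlap. The difference was −1.72 ± 0.38 (log2, SE), which edgeR did not call (adjusted p = 0.35, 1 gene or 0.0049% called) and DESeq2 did (adjusted p = 0.012, 183 genes or 1.23%). Within WT Il1rl1+ cells Ikzf3 was 245 and 505 CPM in Il18r1+ and 142 and 152 CPM in Il18r1− cells, which did not overlap, with a difference of −1.26 ± 0.37 (edgeR adjusted p = 1). Aiolos was therefore higher in the Il18r1+ cells of both gates in both experiments. Ikzf2 was 416 and 302.5 CPM in Il18r1+ and 278 and 284 CPM in Il18r1− Icos+ cells, a smaller difference.

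**Figure D3:**
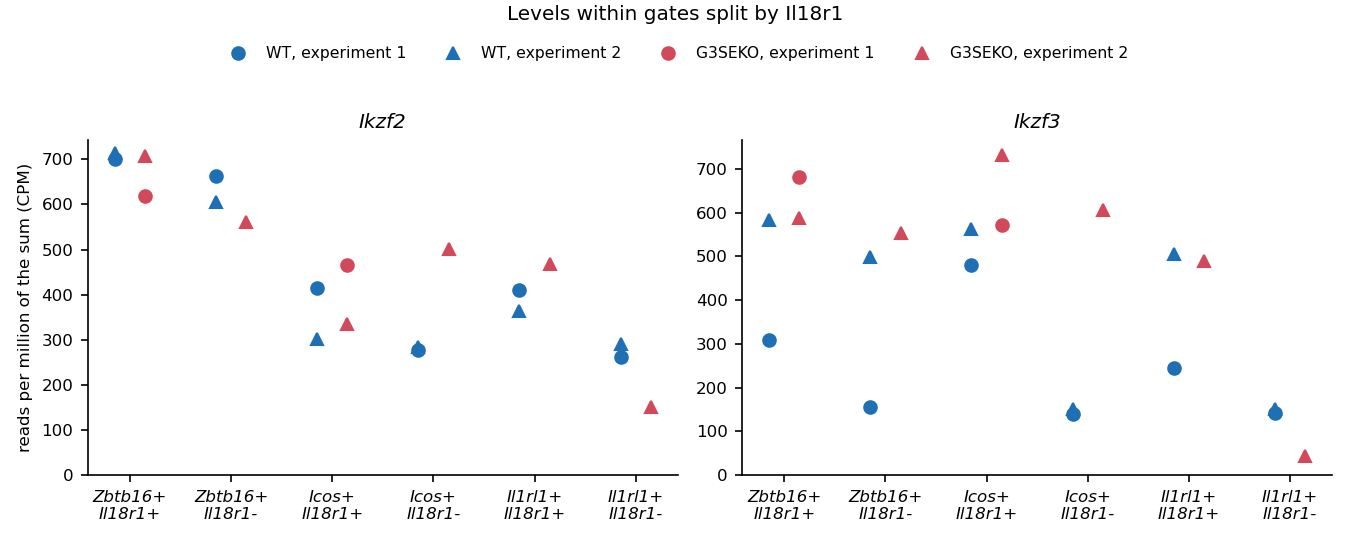
CPM of Ikzf2 (left) and Ikzf3 (right) in Zbtb16+, Icos+ and Il1rl1+ cells split by Il18r1 at the gate limit, blue for WT and red for G3SEKO, circles for experiment 1 and triangles for experiment 2. In WT, Ikzf3 is 480.1 and 562 CPM in Icos+ Il18r1+ cells and 139.9 and 152 CPM in Icos+ Il18r1− cells.

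Among Il18r1+ cells the genotypes were closer in the Icos+ and Il1rl1+ gates, and not in the Zbtb16+ gate. All 6 G3SEKO Icos+ cells of experiment 1 were Il18r1+, so the split left their value of 572 CPM unchanged and altered the WT value alone. In Icos+ Il18r1+ cells Ikzf3 was 480.1 and 562 CPM in WT and 572 and 732 CPM in G3SEKO, a fitted difference of 0.36 ± 0.37 (log2, SE; edgeR adjusted p = 0.87; 0 genes or 0% called, 922 at an unadjusted p under 0.05, 50 by DESeq2). In Il1rl1+ Il18r1+ cells of experiment 2 it was 505 CPM in 190 WT cells and 489.9 CPM in 36 G3SEKO cells. The 2.4-fold ratio of the whole Il1rl1+ gate was thus not found among its Il18r1+ cells. In Zbtb16+ Il18r1+ cells Ikzf3 was 309.4 and 583 CPM in WT and 683 and 588 CPM in G3SEKO, with a fitted difference of 0.65 ± 0.37 (edgeR adjusted p = 1). In Icos+ Il18r1− cells, however, it was 152 CPM in 446 WT cells and 605 CPM in 47 G3SEKO cells of experiment 2, and in Il1rl1+ Il18r1− cells 152 CPM against 43.7 CPM in 13 G3SEKO cells. These last ratios have no replicate and point in opposite directions.

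Helios kept a difference between gates when only Il18r1+ cells of WT were compared. From Zbtb16+ Il18r1+ to Il1rl1+ Il18r1+ cells Ikzf2 changed by −0.82 ± 0.21 (log2, SE), which edgeR did not call (adjusted p = 0.32, 25 genes or 0.122% called) and DESeq2 did (adjusted p = 0.013, 403 genes or 2.94%). Ikzf3 changed by −0.20 ± 0.37 (edgeR adjusted p = 1) between the same subsets. Whether these changes differ from each other was not tested.

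The same gates were split by Gata3 at the same limit. In Il1rl1+ cells of experiment 2, Ikzf3 was 177 CPM in WT Gata3+ and 171 CPM in WT Gata3− cells, and 419 and 425 CPM in the same subsets of G3SEKO. In WT of experiment 1 it was 165 CPM in 391 Gata3+ and 88.1 CPM in 33 Gata3− cells, so the 2 experiments differed in whether WT levels moved with Gata3. The genotypes of experiment 2 stood apart in both subsets. In Icos+ cells of experiment 2 it was 312.2 and 195 CPM in WT and 798 and 605 CPM in G3SEKO, Gata3+ and Gata3− in that order. None of these subset ratios had a replicate in both genotypes other than Icos+ Gata3+, where experiment 1 gave 399 CPM for WT against 582 CPM for 5 cells of G3SEKO.

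Per cell, the share with Ikzf3 at the gate limit was higher in G3SEKO than in WT Icos+ cells of both experiments, although it did not follow the CPM in every gate. It was 42.5% and 25.2% of WT Icos+ cells, and 83.3% and 61.2% of G3SEKO Icos+ cells, the former of 6 cells. The exact 95% binomial interval was 21.6% to 29.0% in WT and 55.6% to 66.7% in G3SEKO of experiment 2, which do not overlap and cover counting error only, since reads were not collapsed to molecules. In Il1rl1+ cells the share was 26.4% and 18.4% in WT and 42.9% in G3SEKO, and in Zbtb16+ cells 42.0% and 45.8% in WT and 64.7% and 56.3% in G3SEKO. In Ccr6+ cells of experiment 2 it was 5.26% in WT and 3.74% in G3SEKO, against the order of the CPM.

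With every cell thinned to 6753 reads, the share of cells with any Ikzf3 read in experiment 2 was 26.8% in WT and 67.3% in G3SEKO Icos+ cells, and 22.5% and 46.9% in Il1rl1+ cells. In experiment 1 the thinned shares in Icos+ cells were 45.0% in WT and 50.0% of 6 G3SEKO cells, which were not told apart. Thinning matched the reads of each cell, not molecules, and the median depth before it was 29517 reads in WT and 46417.5 in G3SEKO Icos+ cells of experiment 2. As a floor for reads from free RNA, no gate is known to lack the gene, and the lowest thinned shares were 7.89% in WT and 6.54% in G3SEKO Ccr6+ cells, with median depths of 32320 and 42490 reads. All other gates lay above them.

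**Figure D4:**
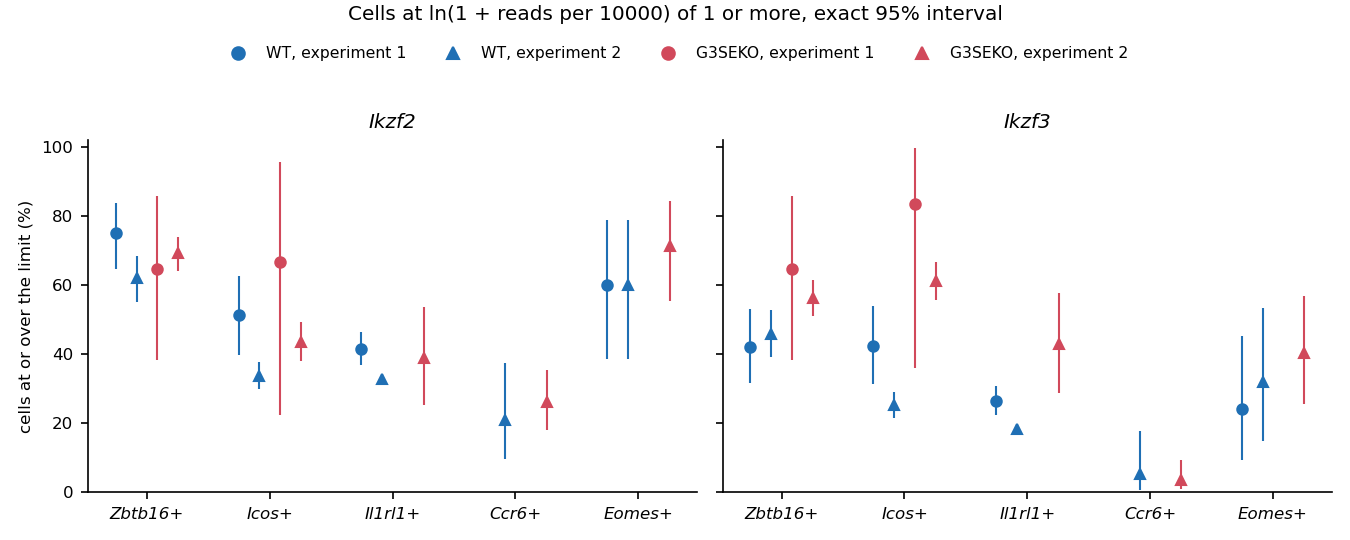
Percent of cells with Ikzf2 or Ikzf3 at the gate limit (vertical axis) in each gate, blue for WT and red for G3SEKO, circles for experiment 1 and triangles for experiment 2, with exact 95% binomial intervals. Ikzf3 was at the limit in 25.2% of WT and 61.2% of G3SEKO Icos+ cells of experiment 2.

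Helios and Aiolos were then read jointly in each cell. Among WT Icos+ cells of experiment 2, 9.40% had both at the limit, 24.3% Ikzf2 alone, 15.8% Ikzf3 alone and 50.5% neither. Among G3SEKO Icos+ cells 28.2% had both, 15.4% Ikzf2 alone, 33.0% Ikzf3 alone and 23.4% neither. In experiment 1, 26.2% of 80 WT Icos+ cells had both and 32.5% neither, and 50.0% of the 6 G3SEKO cells had both. Within each experiment cells with Ikzf3 alone and with both thus made up larger shares in G3SEKO, and cells with neither a smaller one. In Il1rl1+ cells of experiment 2, cells with both made up 7.30% in WT and 20.4% in G3SEKO, and in Zbtb16+ cells 31.5% and 41.4%. Cells of 1 capture are not replicates, so these shares carry no test.

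**Figure D5:**
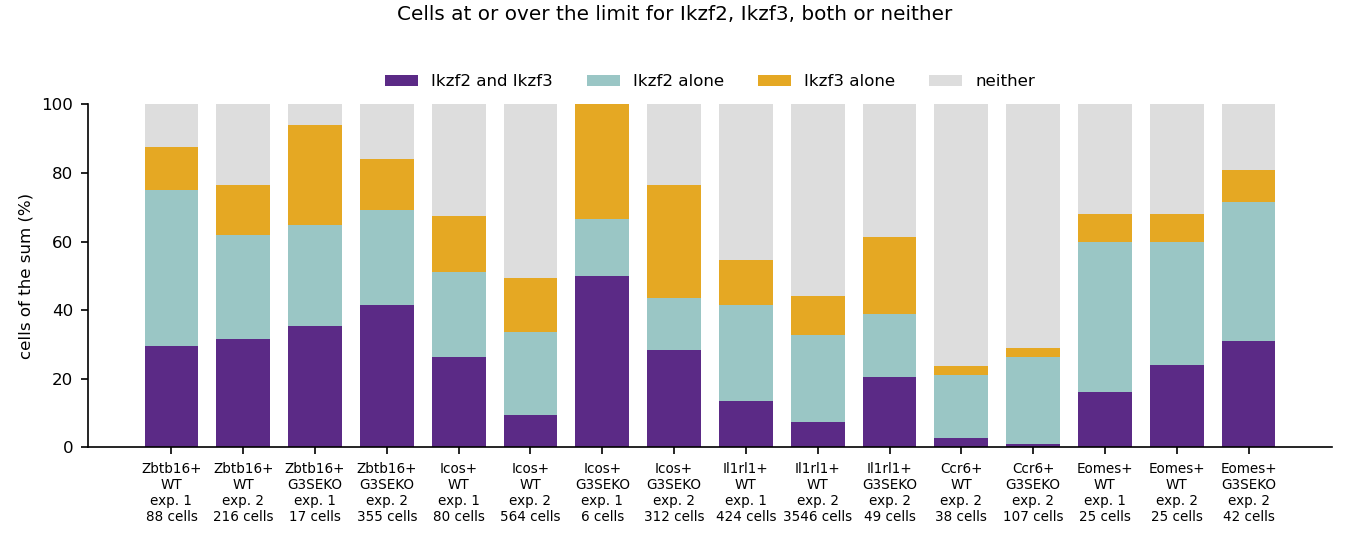
Percent of cells (vertical axis) with both Ikzf2 and Ikzf3 (purple), Ikzf2 alone (blue-green), Ikzf3 alone (orange) or neither (grey) at the gate limit, 1 bar for each of the 16 sums of a gate, genotype and experiment. Cells with neither make up 50.5% of WT and 23.4% of G3SEKO Icos+ cells of experiment 2.

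The known partners of the family were counted from lists chosen on general knowledge. The 13 NuRD genes, 9 further corepressor and SWI/SNF genes and 5 genes of the cereblon ligase were all tested, and edgeR called 0 of them up or down in any of 7 contrasts, in which it called 0 to 14 of 20544 genes, so the count says nothing particular to these partners. From Zbtb16+ to Il1rl1+ WT cells the median log2 change was −0.26 for NuRD, −0.02 for the other corepressors and −0.11 for the ligase, against 0.06 for all genes. Of the NuRD genes, 2 of 13 had an unadjusted p under 0.05, where 1357 of all 20544 genes did (6.61%), and their changes ran from −0.89 for Mta3 to 0.75 for Chd3. Between genotypes in Icos+ cells the medians were 0.11, 0.15 and −0.03, against −0.31 for all genes. Mta3, a NuRD subunit, had the highest value among NuRD genes there, 1.09 ± 0.35 (log2, SE; edgeR adjusted p = 0.87). DESeq2 called Mta3 alone of the 13 (log2 change of 1.28), where it called 0.869% of all genes.

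The genes whose levels over the 16 sums were most like that of Ikzf3 were Rxrg, a retinoid X receptor (Pearson r of 0.94), Trbj1-7, a T cell receptor joining segment (0.92), Smco4 (0.91), Slc9a9, a sodium/proton exchanger (0.91), and Nckap5l (0.90), among 9780 genes. For Ikzf2 they were Ighm, the immunoglobulin heavy constant mu gene (0.90), Selplg, the P-selectin ligand (0.89), and Gm36723 (0.88). Levels were log2 CPM centred within each experiment, and the sums share gates, libraries and depth, so these values are descriptions. Between members, r was 0.76 for Ikzf2 with Ikzf3 and −0.19 for Ikzf1 with Ikzf3.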

How the data were processed

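Bone marrow αLPs of WT and G3SEKO mice were profiled in 2 experiments, each with an mRNA and a hashtag library. Per the methods of the study, the authors used Cutadapt for adapter trimming and Bowtie2 for alignment to GRCm38, and deposited raw read counts per gene and cell, with no collapse to molecules. Cells were kept above the authors' read limits (lowest kept total 86505 and 6753 reads in experiments 1 and 2), with at most 10% mitochondrial reads, a genotype in the hashtag prefix and Id2 at ln(1 + reads per 10000) of at least 1. Doublets had been called by the authors from hashtags, and no further caller was run. The experiments shared 11 cell barcode numbers.

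Counts were summed per gate, genotype and experiment (at least 5 cells, 16 sums, 1614581 to 190982682 reads) and fitted over 20544 genes with edgeR 4.0.16 (quasi-likelihood, TMM, experiment as block, Benjamini-Hochberg, threshold 0.05, in R 4.3.3). Both genotypes were captured together within each experiment, which is the source of the pairing. Differences between experiments correlated between groups at r of 0.02 to 0.28 over 15 pairs (median 0.13). DESeq2 1.42.0 and the other settings are given under the closing observations. Ratios of single sums had 2 reads added to each. Shares have exact Clopper-Pearson 95% intervals over the cells of a sum, which cover the sampling of cells and not the variation between captures or mice. Scripts were tested on simulated counts. The p-values measure the scatter of gate and genotype sums that remains between the 2 experiments after the experiment block. Several sums came from each pooled capture of several mice, so a spread between mice was not measured. All 5 members were named, with the gate genes, Gata3 and 3 partner lists, and the 5 genes most like Ikzf3 and 3 most like Ikzf2 among those with a mean of at least 10 CPM. Members, gates and lists were chosen with earlier results of these data known. Gene positions and shared sequences came from GRCm38 with GENCODE annotation. A marker check of the Ccr6+ gate and some of the shared sequences are not reported here.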

Additional observations from a re-analysis of the deposited data

Results flagged for a closer look

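Several genotype differences of 3 members ran in opposite directions in different gates, in that every experiment of one gate moved one way and the only experiment of another moved the other way. The values are log2 ratios of G3SEKO over WT in experiment 2, and the difference between gates was not tested in any of these cases. Ikzf1 was lower in G3SEKO Zbtb16+ and Icos+ cells of both experiments, and higher in Il1rl1+ (0.24), Ccr6+ (0.38) and Eomes+ cells (0.36). The value in Eomes+ cells holds only against WT of experiment 2 (185 CPM, against 238 CPM in G3SEKO), since WT of experiment 1 was at 408 CPM. Ikzf2 was lower in G3SEKO Zbtb16+ cells of both experiments, by less than 1 SE of the fit, and higher in Il1rl1+ (0.51), Ccr6+ (0.79) and Eomes+ cells (0.36). It was also higher in G3SEKO Icos+ cells, at 0.32 in experiment 1 and 0.28 in experiment 2. Ikzf5 was lower in G3SEKO Icos+ cells of both experiments and higher in Il1rl1+ (0.73) and Eomes+ cells (0.18), and its values are uncertain because Pstk overlaps it on the opposite strand and the use of strand in counting was not stated. Each of the higher values in Il1rl1+, Ccr6+ and Eomes+ cells came from 1 pair of sums in which the G3SEKO sum held 42 to 107 cells.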

How the results depend on the processing

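Of 328 alternative values of 23 results, 288 were rated unchanged, 22 moved, 13 reversed and 5 passed the threshold where the reported fit did not. Tested values were unchanged if they kept their direction and side of the threshold. Untested values were unchanged if they kept their direction and lay within 1 SE of the reported value. Counts of called genes were unchanged if they stayed within a set fold of the reported count. The cause was not tested for any value that moved, reversed or passed the threshold. The difference of Ikzf2 from Zbtb16+ to Il1rl1+ WT cells was called with DESeq2 (−1.20), with sums of the compared groups alone (−1.18), with thinned cells (−1.09) and with sums per hashtag (−1.23), and ranged from −1.25 to −1.11 without 1 experiment. Without the replicate block, that is without the pairing of genotypes within an experiment, it was −1.18, that of Ikzf3 was −1.24 and the genotype difference of Ikzf3 in Icos+ cells was 0.90, and the block changed no call. Without 1 experiment the last 2 ranged from −1.57 to −0.80 and from 0.70 to 1.26. The Ikzf3 ratio in Il1rl1+ cells was 0.76 with a gate limit of 2. The 14 genes called between Il1rl1+ and Zbtb16+ WT cells became 496 with DESeq2, 626 with the compared groups alone, 7 with no Id2 limit, 23 and 34 with gate limits of 0.5 and 2, 486 with thinned cells, 41 without cells with other-lineage markers, 227 with sums per hashtag and 13 with no block. No count of called genes between genotypes in Il1rl1+ cells could be given, since experiment 1 has 1 such G3SEKO cell. Values that changed sign were small in the reported fit. With sums per hashtag these were Ikzf3 in Icos+ minus Zbtb16+ WT cells (0.072), Ikzf2 between genotypes in Zbtb16+ (0.020) and Icos+ cells (−0.021), and the Icos+ minus Zbtb16+ difference of genotype effects of Ikzf2 (−0.041) and Ikzf3 (−0.19). With a gate limit of 2 they were Ikzf2 in Il1rl1+ minus Icos+ WT cells (0.12) and between genotypes in Zbtb16+ cells (0.084), and with a limit of 0.5 Ikzf2 in Eomes+ minus Zbtb16+ WT cells (0.10). As the mean of the CPM of each cell, Ikzf1 in Eomes+ minus Zbtb16+ WT cells was −0.0033. Without 1 experiment (replicate), that Ikzf1 value ran from −0.56 to 0.93, Ikzf2 in Il1rl1+ minus Icos+ WT cells from −0.39 to 0.080, Ikzf3 in Icos+ minus Zbtb16+ WT cells from −0.89 to 0.44 and its difference of genotype effects from −0.45 to 1.21. Ikzf4 and Ikzf5 had 210 alternative values, 27 with the other sign and 0 called of 160 tested. Leaving out cells with Mki67 or Top2a, and the splits by Il18r1, were added after the data were seen.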

Other observations

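Cells that passed the limits but fell into none of the 5 gates numbered 62 WT and 12 G3SEKO in experiment 1 and 738 and 292 in experiment 2. Ikzf1 was 350.3 and 310.4 CPM in these WT cells and 344 and 321 CPM in G3SEKO cells. Ikzf2 was 319 and 259 CPM in WT, and 28.1 CPM from the 12 G3SEKO cells of experiment 1 and 375 CPM in experiment 2. Ikzf3 was 217 and 168 CPM in WT, and 68.3 and 301 CPM in G3SEKO, so that the 2 experiments gave opposite directions for both genes.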
